A study of Mus musculus with 10 samples.

Results

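This account follows 8 genes of the peroxisome proliferator-activated receptor (PPAR) pathway and of fat oxidation through mouse intestinal organoids and colonic crypts: Ppara, Ppard, Cpt1a, Acadm, Ehhadh, Plin2, Angptl4 and Pdk4. They were chosen by name, with earlier results of these data known, and their UMIs (unique molecular identifiers, which mark captured transcript molecules) were summed per library and per class of cells in a table of 23810 genes. All 8 were among the 16037 genes tested in the organoids.

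PPARs are nuclear receptors that bind fatty acids and their derivatives and act on target genes in pairs with retinoid X receptors. PPARα, encoded by Ppara, turns on the genes of fatty acid oxidation in fasting, and in the gut it is active in the enterocytes that handle dietary fat. PPARδ, encoded by Ppard, is expressed in most tissues, and its targets overlap with those of PPARα. The other genes cover the steps that follow: Cpt1a loads fatty acids onto carnitine for entry into mitochondria, Acadm oxidizes medium-chain acyl-CoA there, and Ehhadh works in the peroxisome. Plin2 coats lipid droplets, Angptl4 is a secreted inhibitor of lipoprotein lipase, and Pdk4 blocks the pyruvate dehydrogenase complex and so spares glucose.

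The organoids were grown from crypts of the mouse proximal small intestine. The 3 ENR-organoid libraries (passages 2, 7 and 3) were cultured with EGF, Noggin and R-Spondin 1. The 3 Hyper-organoid libraries (passages 1, 6 and 3) had a medium of 8 components: EGF and FGF2, conditioned medium with R-Spondin 1, LDN193189, Pexmetinib, GSK-3 Inhibitor XV, EPZ6438 and VPA. The 2 -VE-organoid libraries (passages 1 and 6) had that medium without VPA (valproic acid, which inhibits histone deacetylases) and without EPZ6438 (which inhibits EZH2, a histone methyltransferase). The first pair of Hyper-organoid libraries and both -VE-organoid libraries were derived from ENR-organoids, and ENR and Hyper replicate 3 were derived from primary crypts. By these media Hyper- and ENR-organoids differ in several components, while Hyper- and -VE-organoids differ in VPA and EPZ6438. The methods of the study also recommend knockout serum replacement for Hyper-organoids after passaging. The labels do not say whether any library had it. Colonic crypts were sequenced as 1 library from normal mice and 1 library from mice given dextran sulfate sodium (DSS), which injures the colonic epithelium. The labels do not give the strain, sex or age of the mice. By the methods of the study, crypts for organoid culture came from young adult mice, and colitis was induced in young adult females.

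The 8 organoid libraries held between 1983 and 4293 kept cells and between 89124015 and 170019527 UMIs, and the colonic libraries held 1132 and 1933 cells with 19906845 and 32397122 UMIs. Any pair of libraries shared at most 5 cell barcodes. The authors' classes were checked against marker genes. All 4 markers of the enterocyte, Paneth and enteroendocrine classes and all 3 of the revival stem class were highest in their own class. For the transit amplifying and enterocyte progenitor classes this held for 3 of 4 markers, and for the goblet class for 2 of 4, since Tff3 and Muc2 were highest in Paneth cells. For the stem class it held for 1 of 4 (Lgr5), since Ascl2 and Olfm4 were slightly higher in the transit amplifying class and Cd44 was highest in the revival stem class. Among 5 leukocyte markers the summed level was 0.422 to 0.709 plain CPM (UMI counts scaled to a common library total, with no further adjustment) in the organoids, and Ptprc had no UMI in 7 of 8 libraries. The summed level of 4 stromal markers was 5.28 to 15.7 plain CPM in ENR- and -VE-organoids and 19.6 to 90.5 in Hyper-organoids, with Col3a1 at 0 UMIs in 6 libraries and Vim making up nearly all of it. Their part in the results was not tested.

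The genes lie on 7 chromosomes of the mm10 (GRCm38) genome and are all annotated as protein coding in GENCODE M21. Ppara (ENSMUSG00000022383) is at chr15:85734983-85802819 on the plus strand, and Ppard (ENSMUSG00000002250) is at chr17:28232700-28301474 on the plus strand. Cpt1a (ENSMUSG00000024900) is at chr19:3322334-3385733, plus strand, and Acadm (ENSMUSG00000062908) at chr3:153922357-153944632, minus strand. Ehhadh (ENSMUSG00000022853) is at chr16:21761287-21787807, Plin2 (ENSMUSG00000028494) at chr4:86648386-86670060, Angptl4 (ENSMUSG00000002289) at chr17:33773750-33781830 and Pdk4 (ENSMUSG00000019577) at chr6:5483351-5496309, all on the minus strand.

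The RefSeq promoter sequence was read for the members because PPAR and retinoid X receptor pairs bind repeats of the motif AGGTCA. RefSeq promoter entries of GRCm38.p6 matched 7 of the 8 genes by symbol, all but Angptl4, and the window from 250 to 51 bases before the RefSeq start was searched. RefSeq and GENCODE place some starts differently: by the GENCODE coordinates above, the Cpt1a and Ppara windows lie inside the gene and the Ppard window reaches just past its start, while the 4 others lie upstream of it. The search covered AGGTCA and its reverse complement TGACCT, and the direct repeat of AGGTCA with a single base between the copies, on both strands. The window of Acadm, a gene with a lower level in Hyper-organoids, was free of annotated exons and held a match but is not printed. Of the other such windows, those of 3 genes with higher and 1 gene with lower levels in Hyper-organoids are shown. Each is printed 5′ to 3′ on the gene's strand, in lower case, with a match in capitals. The windows are chr19:3323051-3323250 for Cpt1a (plus strand), chr4:86670110-86670309 for Plin2, chr6:5496329-5496528 for Pdk4 and chr16:21787885-21788084 for Ehhadh (minus strand).
Cpt1a: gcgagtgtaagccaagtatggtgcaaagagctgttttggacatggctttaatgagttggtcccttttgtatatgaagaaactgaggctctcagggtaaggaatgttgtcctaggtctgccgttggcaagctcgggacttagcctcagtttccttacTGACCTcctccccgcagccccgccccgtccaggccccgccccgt
Plin2: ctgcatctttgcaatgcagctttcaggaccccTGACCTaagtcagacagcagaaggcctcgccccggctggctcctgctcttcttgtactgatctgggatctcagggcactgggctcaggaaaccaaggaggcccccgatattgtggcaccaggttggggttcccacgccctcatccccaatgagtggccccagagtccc
Pdk4: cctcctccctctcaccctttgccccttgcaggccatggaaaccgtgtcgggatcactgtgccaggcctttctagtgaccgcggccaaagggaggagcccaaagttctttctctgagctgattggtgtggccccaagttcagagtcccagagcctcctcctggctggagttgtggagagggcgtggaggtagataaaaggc
Ehhadh: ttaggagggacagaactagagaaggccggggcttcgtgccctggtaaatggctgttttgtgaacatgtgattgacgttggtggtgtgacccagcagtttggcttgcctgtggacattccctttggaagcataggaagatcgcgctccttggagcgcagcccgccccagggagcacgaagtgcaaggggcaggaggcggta

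The motif or its reverse complement was found in 3 of the 7 matched windows, in Cpt1a at 94, in Plin2 at 218 and in Acadm at 249 bases before the RefSeq start. Among all 32851 windows of the same 200 bases, 11.4% held it. The repeat was in 0 of the 7 windows and in 8 of all windows. These matches describe the letters of the windows only.

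The first comparison asked how the genes differ between Hyper- and ENR-organoids when all kept cells of a library are summed. Levels are in CPM, the same scaling with library totals adjusted by TMM factors. A gene was called when the edgeR quasi-likelihood test gave a Benjamini-Hochberg adjusted p under 0.05 and the change was at least 2-fold. Pdk4 and Angptl4 rose and Ppara and Ehhadh fell, so 4 of 8 members were called, against 22.9% of all genes tested. By direction, 18.2% of all genes were called higher and 4.75% were called lower. Genes that passed the filter on low counts through the Hyper-organoid libraries alone are among these. Without them, and no member was one here, 18.5% of all genes were called.

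Ppara, the fatty acid-sensing receptor, measured 11.9, 12.0 and 12.3 CPM in the 3 ENR-organoid libraries, 7.59 and 7.24 CPM in the -VE-organoids and 3.54, 2.96 and 3.73 CPM in the Hyper-organoids. The groups lay apart, in the order ENR, -VE and Hyper, and each group was tight. The group means were 12.0 ± 0.206 (SD, n = 3), 7.41 ± 0.248 (n = 2) and 3.41 ± 0.404 (n = 3) CPM. Ppara fell by 1.82 ± 0.100 (SE) on the log2 scale from ENR- to Hyper-organoids (edgeR adjusted p = 4.87e-06). Within the culture series 2, 6 and C the log2 ratios were -1.74, -2.02 and -1.71.

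Ppard, the more widely expressed receptor, measured 14.0, 13.1 and 13.4 CPM in ENR-organoids and 11.4, 14.5 and 13.4 CPM in Hyper-organoids, and the groups overlapped. The -VE-organoids were at 13.3 and 19.3 CPM. Its log2 fold change between Hyper- and ENR-organoids was -0.05 ± 0.14 (SE, edgeR adjusted p = 0.801), and neither other contrast reached an adjusted p under 0.05.

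Angptl4, the lipase inhibitor, measured 3.12, 4.55 and 1.70 CPM in ENR-organoids, 5.14 and 9.17 CPM in -VE-organoids and 16.2, 13.6 and 15.6 CPM in Hyper-organoids. The lowest Hyper-organoid library stood above the highest of the other 5 libraries. Angptl4 rose by 2.27 ± 0.34 on the log2 scale from ENR- to Hyper-organoids (edgeR adjusted p = 0.000729).

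Pdk4, the pyruvate dehydrogenase kinase, was sparse. It had 54, 94 and 36 UMIs in the ENR-organoid libraries, 30 and 54 in the -VE-organoids and 249, 388 and 209 in the Hyper-organoids. These counts gave 0.559, 0.785 and 0.430 CPM in ENR-, 0.257 and 0.329 CPM in -VE- and 1.69, 2.57 and 2.20 CPM in Hyper-organoids. Hyper-organoids were highest and -VE-organoids lowest, with no overlap among the groups. Pdk4 rose by 1.86 ± 0.27 on the log2 scale from ENR- to Hyper-organoids (edgeR adjusted p = 0.000597).

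Ehhadh, the peroxisomal enzyme, varied more between the libraries of a group. It measured 26.8, 26.5 and 12.3 CPM in ENR-organoids, 19.4 and 18.2 CPM in -VE-organoids and 12.7, 11.5 and 6.51 CPM in Hyper-organoids. The ENR- and Hyper-organoid libraries from primary crypts (replicate 3) were each the lowest of their group, and the groups overlapped. With 1 such library a group, the origin and the culture series cannot be told apart, and neither was tested. Ehhadh fell by 1.09 ± 0.33 on the log2 scale (edgeR adjusted p = 0.0200). Within the culture series 2, 6 and C the log2 ratios were -1.08, -1.20 and -0.92. With the series as a block in the fit the change was -1.07 (edgeR adjusted p = 3.61e-05). The call was lost without ENR replicate 1 (-0.92, adjusted p = 0.0695), ENR replicate 2 (-0.93, adjusted p = 0.0695) or Hyper replicate 3 (-0.85, adjusted p = 0.0510), with plain library sizes (-0.97) and with a filter at 10 CPM (-0.98).

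Plin2, the droplet coat protein, measured 40.3, 44.5 and 43.0 CPM in ENR-organoids and 54.0, 56.8 and 57.1 CPM in Hyper-organoids, without overlap. The difference was small beside the calls above, at 0.39 ± 0.05 on the log2 scale (edgeR adjusted p = 0.000409). Cpt1a, the carnitine loading enzyme, measured 23.6, 24.1 and 23.8 CPM in ENR- and 29.8, 38.2 and 34.6 CPM in Hyper-organoids, a log2 difference of 0.52 ± 0.17 (edgeR adjusted p = 0.0273). Its -VE-organoid libraries stood apart from each other, at 20.9 CPM at passage 1 and 34.4 CPM at passage 6. Acadm, the medium-chain dehydrogenase, was lower, with 65.8, 70.5 and 69.9 CPM in ENR- and 53.3, 61.9 and 62.3 CPM in Hyper-organoids (log2 difference -0.22 ± 0.07, edgeR adjusted p = 0.0256). These 3 genes passed the p limit below the 2-fold limit.

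**Figure D1:**
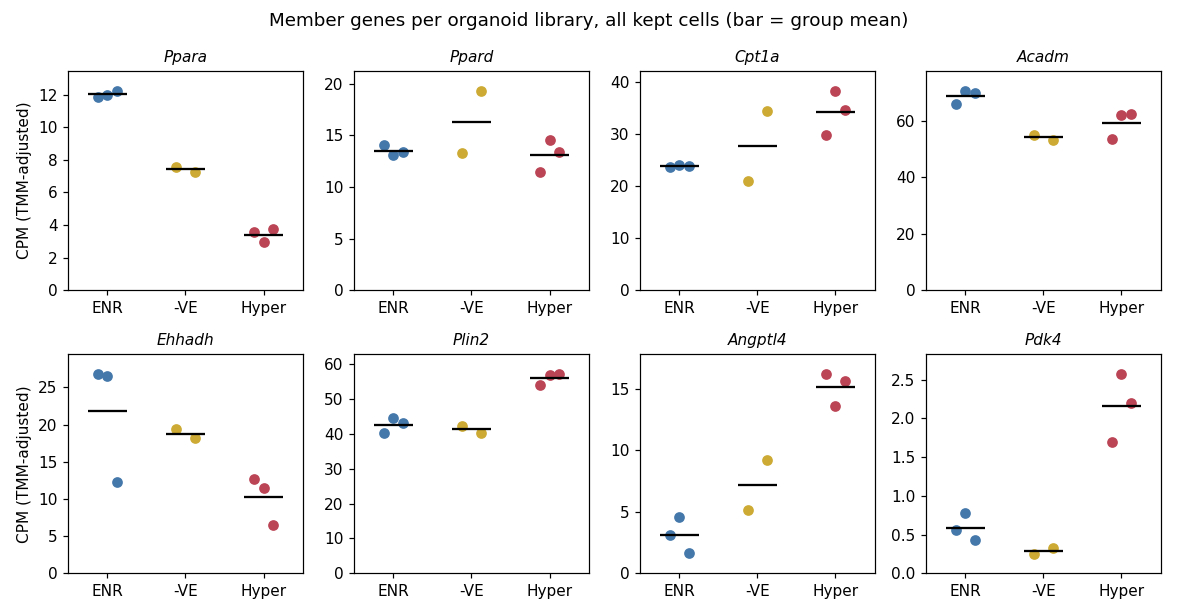
CPM (TMM-adjusted, y axis from 0) of each gene in the 3 ENR-, 2 -VE- and 3 Hyper-organoid libraries, summed over all kept cells. Points are libraries and bars are group means. Ppara steps down from 12.0 to 7.41 to 3.41 CPM, while Angptl4 and Pdk4 are highest in all 3 Hyper-organoid libraries.

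By the stated media, Hyper- and -VE-organoids differ in VPA and EPZ6438. Here 3 of 8 members were called, against 18.6% of all genes, or 14.2% without those that passed the filter through Hyper-organoids alone. Pdk4 rose by 2.87 ± 0.33 on the log2 scale (edgeR adjusted p = 0.000360), Ppara fell by 1.12 ± 0.11 (adjusted p = 0.000154) and Angptl4 rose by 1.08 ± 0.37 (adjusted p = 0.0434). Angptl4 lost the call when any of 5 libraries was left out, and the largest move came without -VE replicate 1, at 0.73 with an adjusted p of 0.224. In this and every other fit without a -VE-organoid library, the lone -VE-organoid sample is assumed to vary like the other groups. Ppara went just under 2-fold with plain library sizes (adjusted p = 0.000281) and with a filter at 10 CPM (adjusted p = 0.000772). Plin2 was 0.44 ± 0.06 higher in Hyper-organoids (adjusted p = 0.000777). Ehhadh differed by -0.87 ± 0.35 with an adjusted p of 0.0748, and by -0.60 with an adjusted p of 0.00100 when the culture series was a block.

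Between -VE- and ENR-organoids, edgeR called 0 of 8 members, against 2.55% of all genes. An unadjusted p under 0.05 was found for 4 members, and DESeq2 called 2, Angptl4 and Pdk4. The share of all genes was not counted for either rule, so these counts cannot be set against it. Ppara was lower by 0.70 ± 0.11 on the log2 scale (edgeR adjusted p = 0.0111) and Acadm by 0.35 ± 0.08 (adjusted p = 0.0339). Angptl4 differed by 1.19 ± 0.37 (adjusted p = 0.0896) and Pdk4 by -1.01 ± 0.32 (adjusted p = 0.0963). Pdk4 passed in the fit with the culture series as a block, at -1.08 with an adjusted p of 0.0454. Ehhadh differed by -0.22 ± 0.36 (edgeR adjusted p = 0.758), and by -0.47 with an adjusted p of 0.0161 in the fit with that block. Angptl4 and Pdk4 had opposite signs in these sums over all cells, without passing the edgeR limits.

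The classes of cells give these sums their context. Enterocytes and their progenitors made up 32.0% to 46.9% of the kept cells in ENR-organoids, 9.97% to 10.6% in -VE-organoids and 0.356% to 1.73% in Hyper-organoids. In ENR-organoids they held 55.5% to 68.5% of all Ppara UMIs and 75.0% to 81.9% of all Pdk4 UMIs, and in Hyper-organoids 4.21% to 17.7% of Ppara and 8.61% to 19.8% of Pdk4 UMIs. The share of this change in cell make-up in the sums over all cells was not tested. The same genes were therefore followed inside each class. The study describes the stem and the transit amplifying cells of Hyper- and ENR-organoids as lying in separate clusters. The annotation used here gives the class of each organoid cell and not its cluster, so the values within these classes compare different clusters under the same name. The classes were cut from these cells, so that differences between classes are described without a test.

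In ENR-organoids, 7 of the 8 genes had their highest class mean in enterocytes, on the plain CPM scale and over sums of at least 20 cells. Ppara averaged 27.6 plain CPM in enterocytes, 14.9 in enterocyte progenitors, 7.96 in the transit amplifying class and 7.58 in the stem class. Goblet cells followed at 4.50, enteroendocrine cells at 3.39 and Paneth cells at 0.815 plain CPM. The ranges over the 3 libraries overlapped between the transit amplifying and stem classes and between the goblet and enteroendocrine classes, and not between the other neighbours.

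Acadm was also steepest at the enterocyte end, with 124 plain CPM in enterocytes, 66.8 in stem cells, 66.6 in enterocyte progenitors and 30.7 in Paneth cells. Plin2 averaged 90.5 plain CPM in enterocytes and between 34.9 and 41.6 in the other classes apart from Paneth cells at 11.6. Ehhadh averaged 60.7 plain CPM in enterocytes, and the ranges of the 6 other classes overlapped from each class to the next. Cpt1a was at 34.9 plain CPM in enterocytes and 30.9 in their progenitors, with overlapping ranges, and between 15.6 and 18.9 in the stem, transit amplifying, goblet and enteroendocrine classes.

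Angptl4 averaged 9.85 plain CPM in enterocytes and at most 2.85 in any other class of ENR-organoids. Pdk4 averaged 3.25 plain CPM in enterocytes and at most 0.737 elsewhere. Ppard was the exception: its highest class was goblet cells, with 28.7 plain CPM in ENR-organoids, 33.2 in -VE-organoids and 23.2 in Hyper-organoids. Enterocytes had 16.2, 22.2 and 21.8 plain CPM of Ppard in the same groups, and in Hyper-organoids the goblet and enterocyte ranges overlapped. The receptors thus had different profiles, Ppara being highest in enterocytes and Ppard in goblet cells. In Hyper-organoids Angptl4 was highest in the revival stem class, at 76.8 plain CPM against 53.4 in enterocytes, but that class reached 20 cells in 1 library only, with 26 cells.

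**Figure D2:**
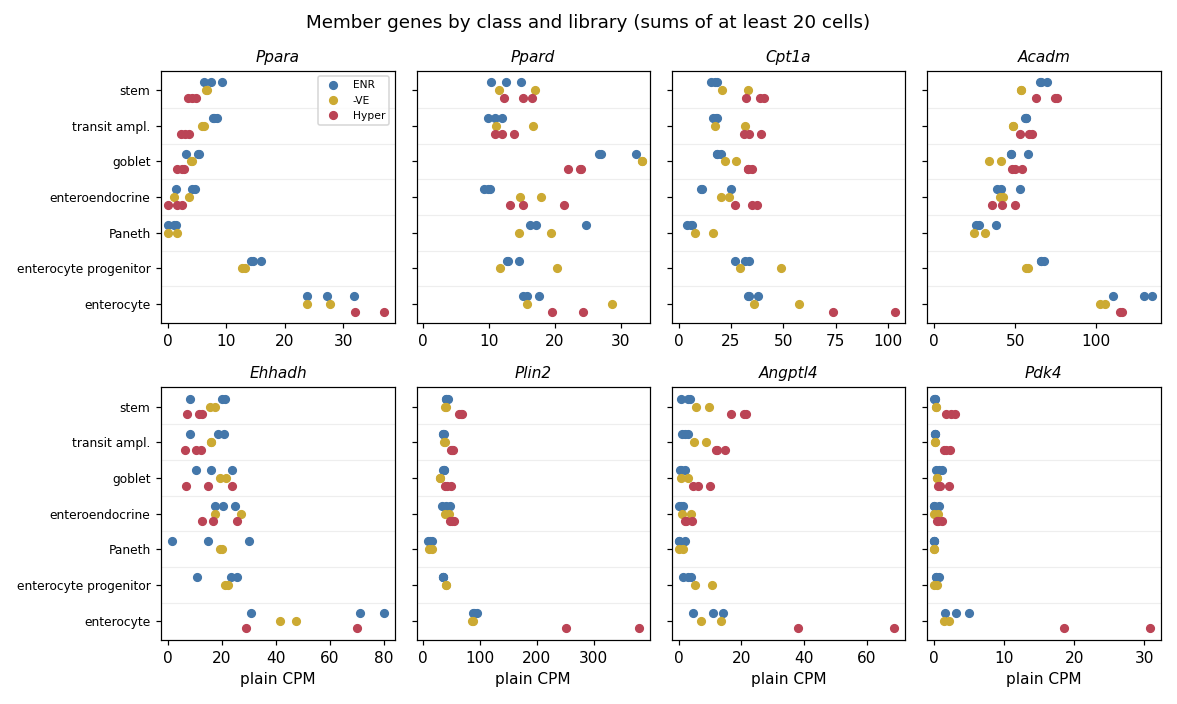
Plain CPM (x axis) of each gene in 7 classes (y axis), 1 point per library whose class sum held at least 20 cells, coloured by culture group. In ENR-organoids enterocytes carry the highest mean of every gene but Ppard, and Hyper-organoid enterocytes reach 380 plain CPM of Plin2.

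In the stem class, with 229 to 1481 cells per library, Pdk4 passed the filter on low counts through the Hyper-organoid libraries alone and is given as a description. Of the 7 other members 3 were called between Hyper- and ENR-organoids, against 18% of all genes, or 12.8% of those that, like these 7, did not pass through Hyper-organoids alone. Angptl4 measured 2.90, 3.64 and 0.973 CPM in ENR-, 5.69 and 9.73 CPM in -VE- and 20.4, 15.8 and 20.4 CPM in Hyper-organoid stem cells. It rose by 2.81 ± 0.32 on the log2 scale (edgeR adjusted p = 0.000118). Pdk4 had 0, 2 and 1 UMIs in the ENR-organoid stem cells, 9 and 9 in the -VE-organoid stem cells and 84, 129 and 107 in the Hyper-organoid stem cells. From ENR- to Hyper-organoids that is a ratio of 25.4 per UMI sequenced, with an exact 95% counting interval of 8.62 to 124. The Pdk4 transcript was thus close to the detection limit in ENR-organoid stem cells.

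Cpt1a measured 17.8, 15.9 and 19.5 CPM in ENR-, 21.6 and 33.7 CPM in -VE- and 30.4, 38.7 and 37.8 CPM in Hyper-organoid stem cells. From ENR- to Hyper-organoids it rose by 1.02 ± 0.17 on the log2 scale (edgeR adjusted p = 0.00107). Ppara measured 9.32, 7.52 and 6.53 CPM in ENR- and 3.89, 3.22 and 4.60 CPM in Hyper-organoid stem cells and fell by 1.02 ± 0.18 (adjusted p = 0.00138). For both genes the ENR- and Hyper-organoid values lay apart, but these 2 changes sit at the 2-fold limit. Ppara was under it with DESeq2 (-0.98), without a filter on low counts (-0.97, adjusted p = 0.000243) and in 5 of the 8 fits that left out a library (smallest change -0.84, without ENR replicate 1), and Cpt1a was under it in 3 of them (0.96 without ENR replicate 2 and 0.98 without Hyper replicate 2 or 3). Without Hyper replicate 2 neither was called. Plin2 was higher by 0.54 ± 0.07 (adjusted p = 0.000242) and Ehhadh lower by 0.80 ± 0.30 (adjusted p = 0.0481), both under 2-fold.

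Against -VE-organoids, 1 of the 7 members other than Pdk4 was called in the stem class, against 16.5% of all genes, or 10.9% counted as above. Angptl4 rose by 1.28 ± 0.29 (edgeR adjusted p = 0.00638) and lost the call without -VE replicate 1 (0.93, adjusted p = 0.0625). Cpt1a differed by 0.36 ± 0.18 between Hyper- and -VE-organoid stem cells (edgeR adjusted p = 0.12). Between -VE- and ENR-organoid stem cells edgeR called 0 of 8, against 0.503% of all genes. An unadjusted p under 0.05 was found for 3 genes, and DESeq2 called 1, Angptl4, at 1.56. For these 2 rules too the share of all genes was not counted.

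In the transit amplifying class, the dividing progeny of stem cells with 773 to 2279 cells per library, 3 of 8 members were called between Hyper- and ENR-organoids, against 20.9% of all genes. Ppara measured 7.94, 8.50 and 8.07 CPM in ENR- and 3.34, 2.11 and 2.74 CPM in Hyper-organoids and fell by 1.58 ± 0.16 on the log2 scale (edgeR adjusted p = 6.18e-05). Pdk4 rose by 3.22 ± 0.33 (adjusted p = 6.72e-05), from 24 UMIs over the ENR-organoid libraries to 366 over the Hyper-organoid libraries. Angptl4 rose by 2.48 ± 0.30 (adjusted p = 0.000188). Cpt1a was higher by 0.87 ± 0.19 (adjusted p = 0.00389), under 2-fold.

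Against -VE-organoids 2 of 8 members were called in this class, against 17.8% of all genes, namely Pdk4 at 3.48 ± 0.37 and Ppara at -1.17 ± 0.17 (edgeR adjusted p = 0.000150 and 0.000722). The contrast of -VE- with ENR-organoids gave 1 call of 8, against 1.03%: Angptl4, with 2.19, 3.03 and 1.24 CPM in ENR- and 5.19 and 9.06 CPM in -VE-organoids, rose by 1.69 ± 0.32 (adjusted p = 0.0324). This call was lost without any ENR-organoid library or without -VE replicate 2, with adjusted p-values between 0.0504 and 0.243.

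The difference between the stem and transit amplifying responses was tested directly for Hyper- against ENR-organoids. By edgeR, 0 of 8 members passed both limits, against 1.14% of all genes. For 2 members the unadjusted p was under 0.05, with no share of all genes counted beside it. The adjusted p was under 0.05 for 1 of the 8, Ppara, and for 25 of 96 tested genes of the pathway lists described below. For this p limit alone the share of all genes was not counted either, and the 1.14% is for both limits. Ppara fell less in the stem class, by 0.54 ± 0.16 on the log2 scale (adjusted p = 0.0271), which is under 2-fold. The p limit was missed without ENR replicate 2 or 3 or Hyper replicate 2 or 3 (adjusted p between 0.0791 and 0.177). Within the culture series 2, 6 and C the Ppara log2 ratios were -1.26, -1.22 and -0.51 in the stem class and -1.25, -2.01 and -1.56 in the transit amplifying class, so that series 2 showed the same fall in both. The same difference was 0.35 ± 0.20 for Angptl4 (adjusted p = 0.280) and 0.17 ± 0.09 for Cpt1a (adjusted p = 0.236).

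Enterocytes of Hyper-organoids were few, with 58 cells in replicate 2 and 21 in replicate 3, and replicate 1 with 7 cells was left out of the fit. In them 4 of 8 members were called against ENR-organoids, against 10.9% of all genes, and all 4 rose. Plin2 measured 87.5, 95.6 and 94.6 CPM in ENR- and 375 and 251 CPM in Hyper-organoid enterocytes, a rise of 1.77 ± 0.15 on the log2 scale (edgeR adjusted p = 8.43e-05). Pdk4 measured 3.16, 4.99 and 1.74 CPM in ENR- and 30.3 and 18.4 CPM in Hyper-organoid enterocytes and rose by 2.90 ± 0.39 (adjusted p = 0.000802). So the droplet coat and the pyruvate dehydrogenase kinase stood several-fold higher in both small Hyper-organoid samples.

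Cpt1a rose by 1.34 ± 0.20 in enterocytes (edgeR adjusted p = 0.00125), from 33.3, 38.3 and 35.5 CPM to 102 and 73.7 CPM. Angptl4 rose by 2.45 ± 0.40 (adjusted p = 0.00219), and missed the p limit without Hyper replicate 2 (adjusted p = 0.0894), where the lone Hyper-organoid sample is assumed to vary like the other groups. Ppara, in contrast to the stem and transit amplifying classes, measured 31.7, 27.5 and 25.3 CPM in ENR- and 31.5 and 36.9 CPM in Hyper-organoid enterocytes, with overlap and a log2 difference of 0.25 ± 0.17 (adjusted p = 0.322). Whether that response differed between enterocytes and the other classes was not tested. Between -VE- and ENR-organoid enterocytes edgeR called 0 of 8, against 3.34% of all genes, and DESeq2 called 0. An unadjusted p under 0.05 was found for 1 member, with no share of all genes counted beside it. Ehhadh differed by -0.50 ± 0.35 (edgeR adjusted p = 0.449), and by -0.81 with an adjusted p of 0.00211 with the culture series as a block.

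In goblet cells, which secrete mucus, 2 of the 7 members tested were called between Hyper- and ENR-organoids, against 13.3% of all genes. Angptl4 rose by 2.51 ± 0.59 (edgeR adjusted p = 0.00679) from 3, 10 and 1 UMIs in ENR- to 61, 30 and 30 UMIs in Hyper-organoids. Ppara fell by 1.08 ± 0.35 (adjusted p = 0.0358) from 18, 16 and 18 UMIs to 15, 10 and 13 UMIs in deeper sums. The Ppara call was lost with DESeq2 (adjusted p = 0.0685) and in 6 of the 8 fits that left out a library, all but those without ENR replicate 2 or Hyper replicate 3 (adjusted p between 0.0502 and 0.127). In the hormone-secreting enteroendocrine cells 1 of the 5 members tested was called, against 7.4% of all genes: Cpt1a rose by 1.16 ± 0.28 (adjusted p = 0.0180), and the call was lost without ENR replicate 2 or 3 or Hyper replicate 2 or 3 (adjusted p between 0.0523 and 0.0780). Without genes that passed the filter through Hyper-organoids alone, the shares of all genes called between Hyper- and ENR-organoids were 15.4% in the transit amplifying class, 9.16% in enterocytes, 8.37% in goblet and 5.05% in enteroendocrine cells.

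**Figure D3:**
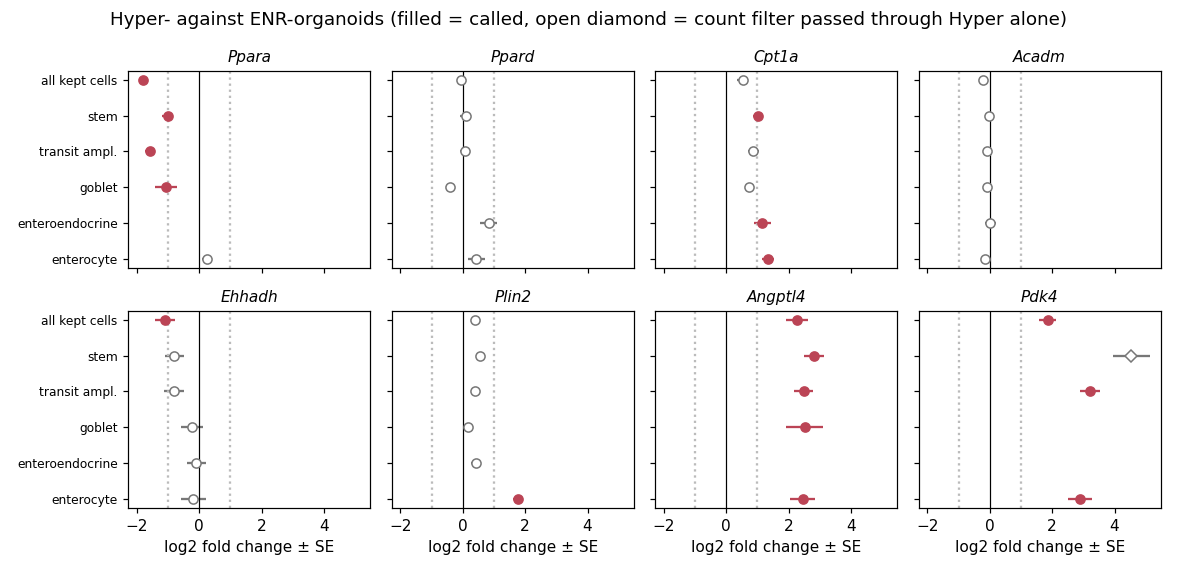
Log2 fold change ± SE (x axis) between Hyper- and ENR-organoids for each gene, over all kept cells and within 5 classes (y axis). Filled points were called, the open diamond is Pdk4 in the stem class, which passed the count filter through Hyper-organoids alone, and dotted lines mark 2-fold. Angptl4 lies between 2.27 and 2.81 wherever it was tested, and Ppara is below 0 in the stem, transit amplifying and goblet classes but at 0.25 in enterocytes.

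The wider pathway was read from 10 lists with 102 genes, of which 99 were tested over all kept cells. The lists hold the members as well, so list counts include the member calls given above and are not separate from them. Between Hyper- and ENR-organoids 14 of the 99 rose and 9 fell, against 18.2% and 4.75% of all genes, or 13.3% and 5.16% without genes that passed the filter through Hyper-organoids alone (14 and 9 of 98 list genes). The median log2 fold change was -0.12 against -0.01 for all genes. Of the 15 mitochondrial beta-oxidation genes 0 were called and 11 had an adjusted p under 0.05, as 56.8% of all genes did, with a list median of -0.25. Within enterocytes the median of this list was 0.34, and 1 gene rose, Hadhb of the trifunctional protein, by 1.40 ± 0.14 (edgeR adjusted p = 0.000229). In the stem class its median was -0.14, and Acadl, the long-chain dehydrogenase, rose by 1.05 ± 0.09 (adjusted p = 2.12e-05). Both were named after their values were seen. Of the 10 peroxisomal genes 1 fell, Ehhadh, and of the 7 carnitine shuttle genes 1 rose, Cpt1c, by 1.19 ± 0.30 (edgeR adjusted p = 0.00907). Cpt1c was named after its values were seen, and went just under 2-fold without ENR replicate 2 (0.97, adjusted p = 0.0337).

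Among receptors and cofactors 1 of 10 rose and 1 fell. Their median was -0.44, against -0.01 for all genes, and 8 had an adjusted p under 0.05 (edgeR), as 56.8% of all genes did. Ppargc1a, the coactivator PGC-1α, rose by 2.76 ± 0.20 from 1.86 ± 0.399 to 12.5 ± 2.49 CPM (edgeR adjusted p = 1.69e-05), and Ppara was the gene that fell. In the lipid droplet list 2 of 13 rose and 2 fell. Mgll, which releases fatty acids from monoglycerides, rose by 4.50 ± 0.25, from 0.736 to 16.7 CPM, and Dgat1, which makes triglycerides in enterocytes, fell by 1.51 ± 0.08, from 120 to 42.3 CPM (adjusted p = 4.73e-06 and 3.36e-06).

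In the uptake and activation list 2 of 10 rose and 3 fell. Acsl4, an acyl-CoA synthetase, rose by 1.43 ± 0.16, and Fabp1, a fatty acid-binding protein of enterocytes, fell by 2.30 ± 0.41 (adjusted p by edgeR of 0.000131 and 0.00167). Of 10 other PPAR targets tested 4 rose and 1 fell, with a list median of 1.04. Angptl4 had the largest rise at 5 CPM or more in this list, and Creb3l3, a transcription factor that acts with PPARα, fell by 2.10 ± 0.35 (adjusted p = 0.00125). The genes called in these lists thus include both directions. The share of enterocytes, in which Fabp1 is a marker, moved with these sums, and its part was not tested.

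In the pyruvate dehydrogenase list 1 of 7 rose, Pdk4, and 1 fell, Pdk2, by 1.02 ± 0.15 (edgeR adjusted p = 0.000531). Pdk2 went under 2-fold without ENR replicate 1 or 2 or Hyper replicate 3 (smallest change -0.91, without Hyper replicate 3). Of the other kinases of this complex, Pdk1 differed by -0.07 ± 0.08 and Pdk3 by 0.52 ± 0.09, both under 2-fold. Within the stem and transit amplifying classes Pdk2 differed by -0.77 ± 0.19 and -0.97 ± 0.17 and was not called. In fatty acid synthesis 1 of 8 rose, Acacb, by 1.34 ± 0.47 (adjusted p = 0.0397), also named after its values were seen. Acacb measured 1.70, 0.994 and 1.48 CPM in ENR- and 6.08, 2.21 and 2.24 CPM in Hyper-organoids, and 1 library was far above the rest. Without Hyper replicate 1 its log2 fold change was 0.68 (adjusted p = 0.135), and the p limit was also missed without any of the ENR-organoid libraries (adjusted p between 0.0643 and 0.125). Of 12 hypoxia-induced genes 3 rose, led by Adm, a secreted peptide, at 2.58 ± 0.20 (adjusted p = 2.37e-05). Angptl4 is a target of hypoxia signalling as well as of PPARs, so the summed CPM of the hypoxia list was set beside it: 668 to 706 in ENR-, 818 and 924 in -VE- and 774 to 946 in Hyper-organoids. The -VE- and Hyper-organoid sums overlapped, and the part of hypoxia in the Angptl4 values was not tested.

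**Figure D4:**
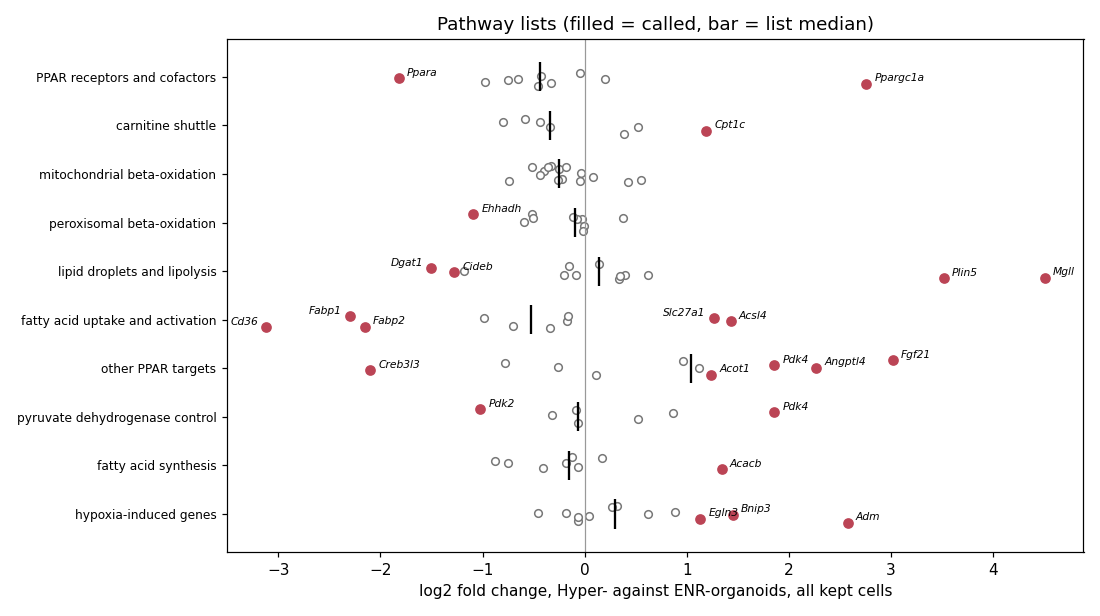
Log2 fold change between Hyper- and ENR-organoids over all kept cells (x axis) for every tested gene of 10 pathway lists (y axis). Filled and named points were called, and bars are list medians, which lie between -0.52 and 1.04. Mgll is farthest to the right at 4.50.

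Against -VE-organoids 10 of the 99 list genes rose and 2 fell in Hyper-organoids, against 16.1% of all genes called higher and 2.51% called lower, or 10 and 2 of 98 against 11.5% and 2.73% without genes that passed through Hyper-organoids alone. Mgll rose by 4.04 ± 0.28, Ppargc1a by 2.46 ± 0.23, Acsl4 by 1.07 ± 0.18 and Adm by 1.81 ± 0.22, and Fabp2, an enterocyte fatty acid-binding protein, fell by 1.30 ± 0.11 (edgeR, all with adjusted p of 0.00187 or less). Acsl4 went under 2-fold without Hyper replicate 1 (0.86) or -VE replicate 2. Acaa1b, a peroxisomal thiolase with the close paralog Acaa1a, rose by 1.54 ± 0.26. In -VE- against ENR-organoids 2 list genes were called by edgeR: Acaa1b and Cideb, a droplet protein, fell by 1.61 ± 0.26 and 1.13 ± 0.21, where 1.35% of all genes were called higher and 1.2% lower. Without -VE replicate 2 neither passed the p limit (adjusted p of 0.107 and 0.164), nor without -VE replicate 1 (0.0595 and 0.0639), and Cideb missed it also without ENR replicate 1 or 2. With the culture series as a replicate block 4 list genes were called there, with no share of all genes counted beside them. Counts of Acaa1a and Acaa1b may be split by their shared sequence.

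Within the stem class 19 of 95 list genes rose and 2 fell between Hyper- and ENR-organoids, against 15.2% of all genes called higher and 2.8% lower. Within enterocytes 21 of 95 rose and 2 fell, against 7.78% and 3.08% of all genes. These counts include the members called in these classes. They also include genes that passed the filter on low counts through Hyper-organoids alone, namely Pdk4 and Mgll in the stem class and Mgll in enterocytes. Without such genes 17 of 93 list genes rose in the stem class, against 9.74% of all genes, and 20 of 94 in enterocytes, against 5.97%. Counted in the same way and in both directions, 15 of 94 list genes were called in the transit amplifying class against 15.4% of all genes, 12 of 85 in goblet cells against 8.37% and 8 of 83 in enteroendocrine cells against 5.05%. Against -VE-organoids 12 of 93 were called in the stem class, against 10.9%, and 10 of 94 in the transit amplifying class, against 12.3%. Between Hyper- and ENR-organoids the list medians were 0.10 in the stem class and 0.34 in enterocytes on the log2 scale, against 0.00 and -0.02 for all genes.

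The genes most like the members were sought by Pearson correlation of log2 CPM over 50 sums of a class in an organoid library, among 8016 genes of at least 10 CPM. Plin2 was most like Crot, a peroxisomal carnitine octanoyltransferase (r = 0.946) and Acadm most like Adtrp (r = 0.924). Cpt1a was closest to Ostf1 (r = 0.894), Angptl4 to Wwc1 (r = 0.889), Pdk4 to Fam3c (r = 0.857), Ppard to Sel1l3 (r = 0.837) and Ehhadh to Ftl1-ps1 (r = 0.813). Among the members themselves Cpt1a and Plin2 were most alike (r = 0.826), and Ppard had r of at most 0.250 with any other member. The sums share libraries, cell classes and depth, so these values describe the profiles only.

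The colonic crypts asked whether the same genes differ between DSS-treated and normal mice. There was 1 library a group, so no test was made, and intervals are exact 95% Poisson intervals that cover counting error only. Genes of at least 5 plain CPM in either library were considered, which left 7 members, and Angptl4 was below it. Of these, 0 of 7 were past 2-fold, against 4.2% of all genes.

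Plin2 had the largest ratio, with 72.0 plain CPM (68.3 to 75.8) in normal and 109 plain CPM (106 to 113) in DSS crypts, a log2 ratio of 0.60 with a pseudocount of 1 CPM. Cpt1a was at 79.2 (75.3 to 83.2) and 93.6 (90.3 to 96.9) plain CPM. Pdk4 was at 29.0 (26.7 to 31.5) in normal and 21.6 (20.0 to 23.3) in DSS crypts, and Ppard at 54.2 (51.0 to 57.5) and 43.9 (41.6 to 46.2). The intervals of these 4 genes lay apart, those of Plin2 and Cpt1a higher and those of Pdk4 and Ppard lower in DSS crypts. The share of all genes whose intervals lay apart was not counted, so the members cannot be set against it.

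Ehhadh was at 27.3 in normal and 22.3 plain CPM in DSS crypts, with intervals that lay apart. Ppara was at 9.49 and 9.94 and Acadm at 129 and 126 plain CPM, with overlapping intervals. Angptl4 had 36 and 34 UMIs. Leukocyte markers summed to 113 plain CPM in the normal and 1070 in the DSS library. With cells restricted to those with an Epcam UMI and no Ptprc UMI, 0 of 7 members were again past 2-fold, against 3.81% of all genes, and the Plin2 log2 ratio was 0.56.

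The authors divided the colonic cells into 25 clusters, which are named here by number. Ppara was highest in clusters 1 and 6, at 24.9 and 24.5 plain CPM over both libraries, among clusters with at least 20 cells. Pdk4 (60.0 and 65.0, beside 69.0 in cluster 17, which held DSS cells only), Cpt1a (143 and 152) and Acadm (188 and 209) were also high in clusters 1 and 6. Cpt1a was at 143 plain CPM in cluster 7 as well, where Ppara was at 3.48. In cluster 0, in which 88.4% of cells had a Ptprc UMI, Ppara, Angptl4 and Pdk4 had 0 UMIs. Plin2 was highest in cluster 15, at 450 plain CPM, a cluster with 66 DSS and 0 normal cells whose leukocyte markers summed to 92341 plain CPM, and in cluster 7, at 295 plain CPM, with 139 DSS and 8 normal cells.

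In 7 clusters with at least 20 cells of both libraries, the Plin2 intervals lay apart in cluster 2 and overlapped in the 6 others. It was at 93.1 plain CPM in normal and 92.4 in DSS cells of cluster 1, at 107 and 128 in cluster 6 and at 53.7 (44.9 to 63.6) and 73.5 (64.7 to 83.2) in cluster 2, which the authors annotated as stem. Pdk4 was lower in DSS cells of cluster 1, at 74.2 (63.7 to 85.8) in normal and 53.8 (47.9 to 60.3), of cluster 5, at 17.1 (11.5 to 24.6) in normal and 6.37 (3.99 to 9.65), and of cluster 13, at 25.6 (17.4 to 36.3) in normal and 5.34 (2.15 to 11.0). In cluster 6 the Pdk4 intervals overlapped, with 57.2 in normal and 68.4 in DSS cells. Ehhadh was lower in DSS cells of cluster 1, at 54.0 (45.1 to 64.1) in normal and 35.5 (30.7 to 40.9), and of cluster 13, at 25.6 in normal and 7.63. Cpt1a was higher in DSS cells of cluster 1, at 122 (108 to 137) in normal and 153 (143 to 163), and of cluster 2, at 48.0 (39.7 to 57.4) and 70.0 (61.4 to 79.5). Acadm was higher in DSS cells of cluster 2, at 104 in normal and 145, and of cluster 5, at 42.5 and 67.5, and lower in cluster 6, at 240.3 and 196. Ppard was lower in DSS cells of cluster 13, at 50.3 and 24.4, and Angptl4 of cluster 2, at 5.69 and 1.17, from 14 and 4 UMIs. The intervals lay apart for each of these and overlapped for the other genes and clusters, Ppara included. Within clusters too, the share of all genes whose intervals lay apart was not counted.

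**Figure D5:**
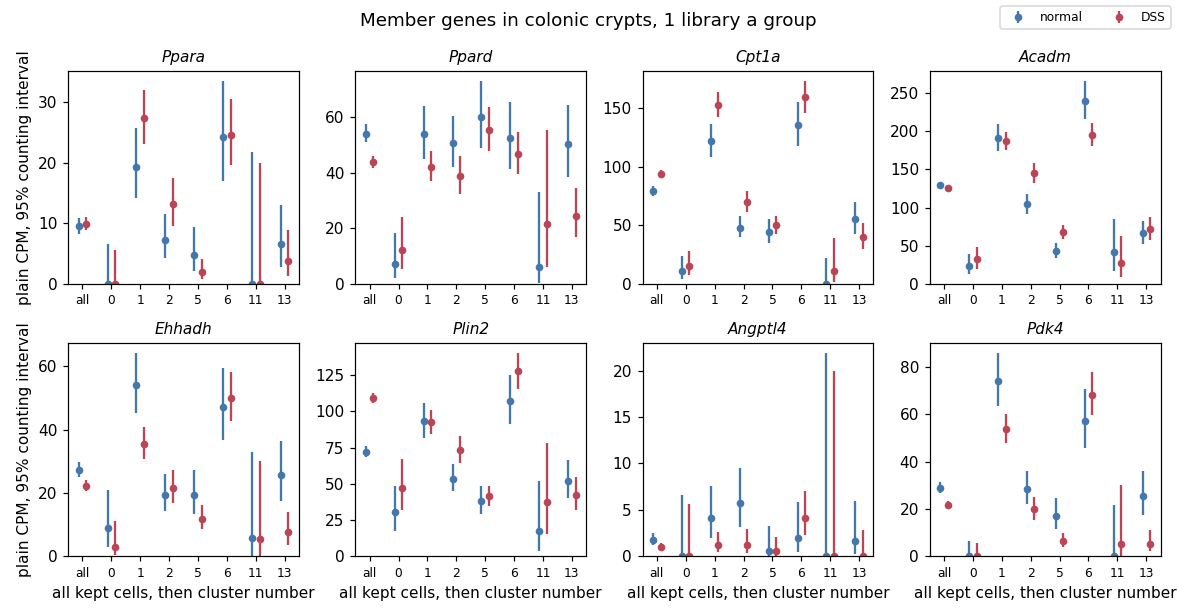
Plain CPM (y axis from 0) of each gene in normal and DSS colonic crypts over all kept cells and in the 7 clusters with at least 20 cells of each library (x axis, cluster number). Bars are 95% counting intervals with 1 library a group. Plin2 is higher in DSS crypts over all cells, at 109 against 72.0, and level between the libraries in cluster 1.

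Of the 89 list genes measured at 5 plain CPM or more in the colon, 6 were past 2-fold higher and 1 lower in DSS crypts, against 2.5% and 1.7% of all genes, with a median log2 ratio of -0.07 against 0.01 for all genes. Fabp2 was lower, at 1536 plain CPM in normal and 586 in DSS crypts. Acaa1b was higher, at 7.99 and 18.6 plain CPM, as were Creb3l3 at 3.01 and 7.78 and the hypoxia-induced Ankrd37 at 5.53 and 19.6. G0s2, an inhibitor of fat breakdown that leukocytes also express, was at 1.71 in normal and 29.3 in DSS crypts, and at 1.80 and 4.83 plain CPM in the cells with an Epcam UMI and no Ptprc UMI. Of the 15 mitochondrial beta-oxidation genes 0 were past 2-fold.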

How the data were processed

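Droplet single-cell RNA-seq of 8 organoid and 2 colonic crypt libraries was used. The authors aligned reads to mm10 with Cell Ranger (3.0.0 in the submitters' processing notes, 3.1.0 in the matrix headers) and annotated cells with Seurat 3.1.4. The deposited values are raw UMI counts per gene and cell, with the authors' class for each of 25204 kept cells; 0 entries differed from the deposited matrices. The methods state a minimum of 1500 genes and at most 25% mitochondrial reads; kept cells reached below 1500 genes and held at most 20%.

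UMI counts were summed per library, or per library and class (at least 20 cells). edgeR 4.0.16 in R 4.3.3 (TMM, filterByExpr, glmQLFit, glmQLFTest) was fitted over all 3 organoid groups, and every adjusted p comes from it unless DESeq2 (1.42.0) is named. The labels give a passage for each organoid library and an origin for some, but not the animals, so p-values measure the spread between these libraries. Whether libraries of a group came from the same culture at different passages is not stated. The culture series was inferred from the library names in the sample titles, and no label names it. Deviations of ENR- and Hyper-organoid libraries of the same inferred series correlated at 0.192, 0.170 and 0.436. In simulated counts for Hyper- against ENR-organoids over all kept cells (15701 genes), 37.3% of 2-fold, 93.9% of 4-fold and 98.5% of 8-fold changes were called, with 2 false calls. Only 67, 66 and 66 genes were changed at these sizes, whereas 22.9% of all genes were called in the data. The rates describe that simulated setting only. No doublet caller was run.

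Named genes were the 8 members and, from each pathway list, the called gene with the largest rise and the largest fall at a mean of 5 CPM or more. The members and lists were chosen with earlier results of these data known. A gene list and the gene most like Ppara are not reported here. Alternatives were DESeq2, other filters and scalings, left-out libraries, the series as a block, other cell filters and another pseudocount. Coordinates and promoters used GENCODE M21 and RefSeq tables of GRCm38.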

Additional observations from a re-analysis of the deposited data

Results flagged for a closer look

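The response of Ppara to Hyper- against ENR-medium differed between the stem and transit amplifying classes by 0.54 on the log2 scale, the fall being smaller in the stem class. It was picked out because a test of the difference itself (edgeR interaction term, adjusted p = 0.0271) passed the p limit, while the size stayed under 2-fold. In the same fit 25 of the 96 tested genes of the pathway lists passed that p limit, Ppara among them. The share of all genes that passed it was not counted. The p limit was missed without ENR replicate 2 or 3 or Hyper replicate 2 or 3, with adjusted p between 0.0791 and 0.177. In culture series 2 the log2 ratios of the classes were alike (-1.26 in stem and -1.25 in transit amplifying cells), while they were -1.22 and -2.01 in series 6 and -0.51 and -1.56 in series C.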

How the results depend on the processing

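Of the values for single members under the alternatives, 1284 kept their side of the limits, 39 lost a call, 12 gained one and 4 moved, and none of the called values changed sign. With a filter at 10 CPM the members called fell from 4 to 2 for Hyper- against ENR-organoids and from 3 to 1 for Hyper- against -VE-organoids over all kept cells, as that filter left Pdk4 untested and Ehhadh and Ppara, respectively, just under 2-fold. Angptl4, still called in both contrasts, passed that filter through the Hyper-organoid libraries alone, with at most 9.17 CPM in the others. Its calls there are given as a description. The list genes called went from 23 to 15 and from 12 to 7 with that filter. The share of all genes called, or past 2-fold in the colon, was not counted for any alternative in this section, left-out libraries included. These counts therefore cannot be set against it. For -VE- against ENR-organoids over all kept cells, 0 members were called by edgeR, 2 by DESeq2, 1 with the culture series as a replicate block and 1 with all barcodes. The list genes called there were 2, but 8 with DESeq2, 4 with the block, 7 with only the groups compared and 9 with all barcodes. In the stem class that contrast gave 0 members, and 1 with DESeq2 or without a filter on low counts. In goblet cells DESeq2 called 1 member where edgeR called 2. In the colon the 4 that moved were log2 ratios with all barcodes: Ppara 0.40 (0.06 in kept cells), Cpt1a 0.40 (0.24), Ehhadh -0.11 (-0.28) and Acadm 0.06 (-0.03). The list genes past 2-fold there went from 7 to 4 with all barcodes. The cause of these other moves was not tested. The block changed no other call of a member than that of Pdk4 between -VE- and ENR-organoids. Without a call, it moved Ehhadh in that contrast from -0.22 to -0.47 over all kept cells (edgeR adjusted p = 0.0161 with the block). In enterocytes the move was from -0.50 to -0.81 (adjusted p = 0.00211 with the block). Ehhadh in Hyper-organoids also passed the p limit with the block in transit amplifying cells, against ENR- (-0.78, adjusted p = 0.000243) and -VE-organoids (-0.56, 0.00274). In stem cells it did so against -VE-organoids (-0.52, 0.00660). So did Cpt1a between -VE- and ENR-organoid stem cells (0.67, 0.0426). Angptl4 did between Hyper- and -VE-organoid transit amplifying cells (0.98, 0.0193).

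Leaving out each library in turn gave ranges of members called. In the stem class they were 2 to 5 for Hyper- against ENR-organoids (2 without Hyper replicate 2), 1 to 2 for Hyper- against -VE-organoids (1 without -VE replicate 1) and 0 to 1 for -VE- against ENR-organoids (1 without -VE replicate 1 or Hyper replicate 1). They were 0 to 1 for -VE- against ENR-organoids in the transit amplifying class, and for Hyper- against ENR-organoids 1 to 2 in goblet and 0 to 1 in enteroendocrine cells. The list genes called between -VE- and ENR-organoids ranged from 0 (without -VE replicate 2) to 5 (without Hyper replicate 1), with 1 without -VE replicate 1 or ENR replicate 2 and 4 without Hyper replicate 3. The stem class counts include Pdk4, which passed the filter through Hyper-organoids alone. Without it they were 1 to 4, 0 to 1 and 0 to 1.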
